A study of Mus musculus with 16 samples.

Results

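The genes of lipopolysaccharide (LPS) recognition and of the signalling cascade below it were examined in open chromatin of activated mouse B cells. The 10 genes were taken by symbol from the GENCODE annotation of GRCm38 (mm10): Tlr4, Ly96, Cd180 and Ly86 of the receptor complexes, the adaptor Myd88, the kinases Irak4 and Irak1, and Traf6, Tab2 and Map3k7 of the ubiquitin ligase and kinase step. ATAC-seq marks open DNA by the adapters that Tn5 transposase cuts into it, and had been carried out on splenic B cells of C57BL/6 mice that carry CD23-Cre, a transgene that acts in mature B cells. In Brg1 fl/+ cells (fl/+) 1 allele of Smarca4, the gene of the chromatin remodeller Brg1, is deleted, and in Brg1 fl/fl cells (fl/fl) both are deleted. Each genotype had 4 libraries. All cells had been purified with CD43 beads and activated with LPS at 10 µg/mL plus IL-4 at 20 ng/mL, and 50000 cells went into each library. The treatment label gives 72 hours of activation and the series design 96 hours. No Cre-free or unstimulated cells are among these libraries, so both genotypes share Cre and LPS, and the number of mice behind the libraries is not given in the sources used here.

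Merging every overlapping or adjoining peak of the 8 lists gave 16566 combined regions. Of these, 14 belonged to the 10 genes: 10 promoter regions, 1 for each gene, which overlapped the window reaching 1000 bp before and 100 bp after an annotated start site, and 4 other regions in a gene body or within 10 kb. Detection in a library needed 1 of its peaks to share at least 1 bp with the region. A missing peak means that the region was not detected at that depth, not that the chromatin was closed. The summit height is the number of fragments over the highest point of a peak, recovered from the deposited fold and −log10 p, and the scaled height divides it by the library's median height over 4571 regions found in every library, relative to the geometric mean of the 8 medians.

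Lipopolysaccharide is bound by MD-2, the product of Ly96, which sits on the receptor TLR4. RP105, encoded by Cd180, is a related receptor of B cells that pairs with MD-1, the product of Ly86. The engaged receptor recruits the adaptor MyD88, which assembles the kinases IRAK4 and IRAK1, and these hand the signal to the ubiquitin ligase TRAF6. Ubiquitin chains are read by TAB2, the partner of the kinase TAK1 (Map3k7), which activates the IκB kinases and MAP kinases.

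Library size differed within and between the genotypes. The lists held 6372 to 14614 peaks in fl/+ and 6271 to 9216 in fl/fl, and the median summit height over the regions found in every library was 23 to 78 fragments in fl/+ and 22 to 47 in fl/fl. fl/+ replicate 1 was the deepest library by this height, and fl/+ replicate 3 and fl/fl replicate 2 were the shallowest. Background differed too. The commonest expected number of fragments at a summit was 1.3, 0.806, 0.541 and 0.735 in fl/+ replicates 1 to 4. It was 1.67, 0.783, 1.46 and 1.38 in fl/fl replicates 1 to 4. Relative to the median summit height it was higher in every fl/fl library than in any fl/+ library. The median fold of the lists was 8.86 to 10.1 in fl/+ and 8.15 to 8.61 in fl/fl. The part of this in missing fl/fl peaks was not tested. Over 4238 promoter regions found in every library, replicate libraries varied about as much as counting noise does: the ratio of the observed variance to the counting variance was 0.758 to 1.20 between fl/+ pairs, 0.797 to 0.865 between fl/fl pairs, and 1.00 to 1.82 between genotypes. The labels number the replicates as separate samples and each was counted as such, but nothing says that they came from separate animals, so the p-values measure the spread between these libraries, which may be technical. Of the B cell markers, the promoters of Pax5 and Ms4a1 were detected in all 8 libraries and those of Cd79b and Cd22 in none. The promoters of Cd79a, Cr2 and Fcer2a, the gene of CD23, were detected in 1, 1 and 2 fl/+ libraries and in 0 fl/fl libraries, and the part of this in the results on the members was not tested. The deletion of Smarca4 itself was not checked from the peak lists. Of the T cell markers only the Lck promoter was detected, in 1 fl/+ library, and the promoters of the 6 myeloid, 2 NK and 2 erythroid markers were detected in none.

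Promoter sequence is shown for 4 members whose detection differed between libraries (Cd180, Ly86, Traf6 and Tab2), and for Map3k7 as a promoter found in every library. Each run holds the 150 bases before the GENCODE gene start on the gene's own strand in GRCm38.p6. Capitals mark matches, on either strand, to any of 14 short motifs. These were NF-κB (GGGANTTTC), ETS (CCGGAA), PU.1-like (GAGGAA), the PU.1-IRF composite (GGAANNGAA), AP-1 (TGANTCA), CRE (TGACGTCA), the E-box (CACGTG), the GC box (GGGCGG), NFY (CCAAT), NRF1 (GCGCATGCG), OCT (ATGCAAAT), RUNX (TGTGGT), YY1 (AAGATGGC) and the core of the CTCF motif (AGGGGGC). A match describes letters and does not show that a factor binds. The runs are Cd180 at chr13:102693408-102693557 and Ly86 at chr13:37345058-37345207 on the forward strand, Traf6 at chr2:101678279-101678428 on the forward strand, Tab2 at chr10:7956231-7956380 on the reverse strand and Map3k7 at chr4:31963947-31964096 on the forward strand.
Cd180: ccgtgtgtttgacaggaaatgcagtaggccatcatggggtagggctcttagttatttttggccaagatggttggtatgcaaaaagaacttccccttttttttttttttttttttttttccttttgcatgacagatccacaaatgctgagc
Ly86: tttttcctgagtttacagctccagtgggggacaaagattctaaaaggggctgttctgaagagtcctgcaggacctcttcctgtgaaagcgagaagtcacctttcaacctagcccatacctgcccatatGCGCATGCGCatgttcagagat
Traf6: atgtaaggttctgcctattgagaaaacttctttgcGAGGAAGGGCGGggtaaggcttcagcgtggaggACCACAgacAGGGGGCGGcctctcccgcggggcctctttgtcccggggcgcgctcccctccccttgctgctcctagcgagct
Tab2: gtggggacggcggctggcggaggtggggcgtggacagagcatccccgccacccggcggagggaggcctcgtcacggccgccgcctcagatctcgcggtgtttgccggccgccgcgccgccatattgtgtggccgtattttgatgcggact
Map3k7: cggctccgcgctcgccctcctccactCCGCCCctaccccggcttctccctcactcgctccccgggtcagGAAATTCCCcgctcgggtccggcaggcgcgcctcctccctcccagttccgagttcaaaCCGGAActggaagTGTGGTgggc

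The Ly86 run held a pair of overlapping NRF1 matches, 1 on each strand, shortly before the gene start, a motif held by 4.39% of all promoter regions within 150 bp of the summit. The Map3k7 run held an NF-κB match, which 1.14% of promoter regions held, together with ETS, GC box and RUNX matches, which 31.9%, 74.8% and 11.1% held. Of the 2 GC box matches of Traf6, the first directly followed the PU.1-like match and the second overlapped the CTCF core. No match fell in the Cd180 and Tab2 runs. Around the summit, the promoters of the 4 receptor complex genes had a GC content of 43.5% to 53.2%, against 60.5% to 75.1% for the other 6 members and a median of 66.1% over promoter regions. CpG dinucleotides reached 0.351 to 0.694 of the number expected from base composition in the receptor genes and 0.593 to 1.11 in the other members, so these ranges overlapped.

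**Figure D1:**
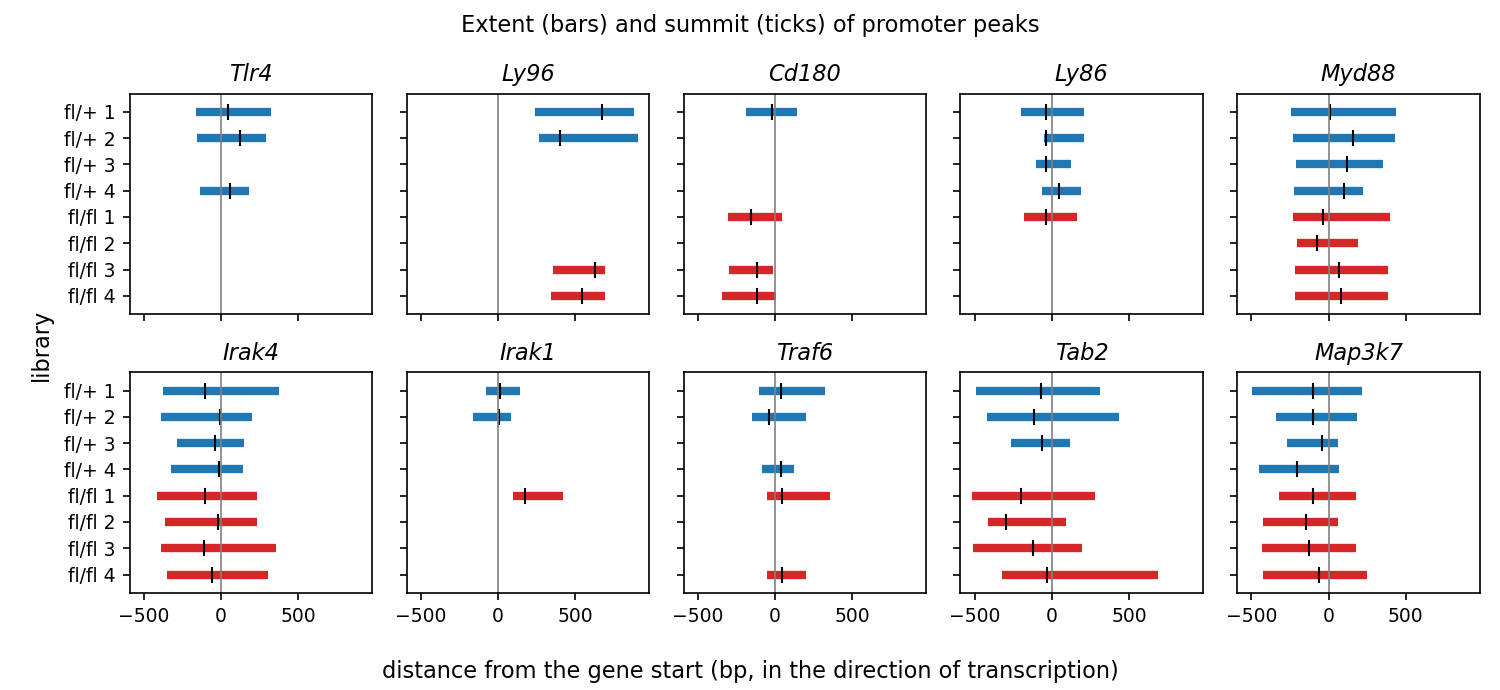
Position of the promoter peaks of the 10 genes. The horizontal axis gives the distance from the gene start in bp along transcription, each row is a library (blue fl/+, red fl/fl), bars are the peaks and ticks their summits; 8 rows are filled for Myd88, Irak4 and Map3k7, and no red row for Tlr4.

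The Tlr4 promoter was detected in 3 of 4 fl/+ libraries and in 0 of 4 fl/fl libraries. The region, chr4:66827423-66827904, spans the gene start, and the median summit lay 59 bp downstream of it, in an exon. The summit height was 26, 18 and 8 fragments in fl/+ replicates 1, 2 and 4, and no peak was listed in replicate 3, the shallowest fl/+ library. After scaling for depth these were 12.0 ± 2.88 (SD, n = 3), a mean over the libraries with a peak only. The same scaled height would have been 14.3, 6.71, 12.8 and 12.8 fragments in fl/fl replicates 1, 2, 3 and 4, where the lowest summit of any listed peak was 8, 6, 8 and 8 fragments. In fl/+ replicate 3 it would have been 7.02 fragments against a lowest summit of 5, and no Tlr4 peak was listed there, so a height above the lowest listed summit does not mean that a peak would have been called. The Tlr4 peaks stood at 54.1%, 64.0% and 93.9% of their lists ranked from the best q, so that they belonged to the weaker part. With the best 6271 peaks of each list, the length of the shortest, the Tlr4 promoter was detected in 0 libraries of either genotype, and no difference can be read at that depth. In these pooled cells, fewer cells with an open site and a site less open in every cell cannot be told apart.

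The Ly96 promoter, which encodes the LPS-binding subunit MD-2, was detected in 2 libraries of each genotype. The region, chr1:16688293-16688959, did not reach the gene start; its median summit lay 588 bp downstream of that, in an intron, and 131 bp past an annotated internal start site. Heights were 34 and 17 fragments in fl/+ replicates 1 and 2, and 11 and 15 in fl/fl replicates 3 and 4. Scaled, the libraries with a peak gave 15.3 ± 2.68 (SD, n = 2) in fl/+ and 12.2 ± 2.66 (SD, n = 2) in fl/fl, and the ranges overlapped. Where a region was instead assigned to a promoter by its centre, this one no longer belonged to the Ly96 promoter.

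The Cd180 promoter was detected in more fl/fl than fl/+ libraries, 3 against 1. The height was 25 fragments in fl/+ replicate 1, and 15, 10 and 21 in fl/fl replicates 1, 3 and 4. Only the deepest fl/+ library had a peak, while the fl/fl library without a peak was the shallowest of its genotype. The median height of fl/+ replicate 2, which had no peak, was 50 fragments, against 22 to 47 in the fl/fl libraries. The part of depth in the detection of this promoter was not tested. The scaled height of 12.7 in fl/+ replicate 1 lay within the 9.40 to 19.7 of the fl/fl libraries. The median summit was 114 bp upstream of the gene start, inside the run printed above, in the region chr13:102693217-102693699. With equal numbers of peaks the promoter was detected in 0 fl/+ libraries and 1 fl/fl library.

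The Ly86 promoter was detected in all 4 fl/+ libraries and in 1 of 4 fl/fl libraries. The height was 40, 21, 12 and 15 fragments in fl/+ replicates 1 to 4 and 15 in fl/fl replicate 1, the deepest of its genotype. The scaled height was 18.5 ± 2.26 (SD, n = 4) in fl/+, from 16.4 to 20.6, and 12.6 in the fl/fl library with a peak, below all 4. At the fl/+ mean, 22.0, 10.3, 19.6 and 19.6 fragments would have stood at the summit in fl/fl replicates 1 to 4. The lowest listed summits there were 8, 6, 8 and 8. As at Tlr4, a height above the lowest listed summit does not mean that a peak would have been called. With equal numbers of peaks the promoter was detected in 3 fl/+ and 0 fl/fl libraries, with a −log10 q of at least 5 in 4 and 1, and with at least 10 in 2 and 0. The region, chr13:37345011-37345418, had its median summit 36 bp upstream of the GENCODE gene start, chr13:37345208, next to the NRF1 letters. The RefSeq start, chr13:37345345, also lies in the region, further along the gene.

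Of the 10326 promoter regions, 1.99% were detected in at least 3 fewer fl/fl than fl/+ libraries, as at Tlr4 and Ly86. With equal numbers of peaks it was 1.89%, and Ly86 remained the only such member. This base holds the 41.1% of promoter regions detected in all 8 libraries, which could not differ. It also holds regions detected in fewer than 3 fl/+ libraries, which could not differ by 3 in this direction. The share among partly detected promoters was not counted. The member genes were chosen with earlier results of the data known, and no test was run over them.

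**Figure D2:**
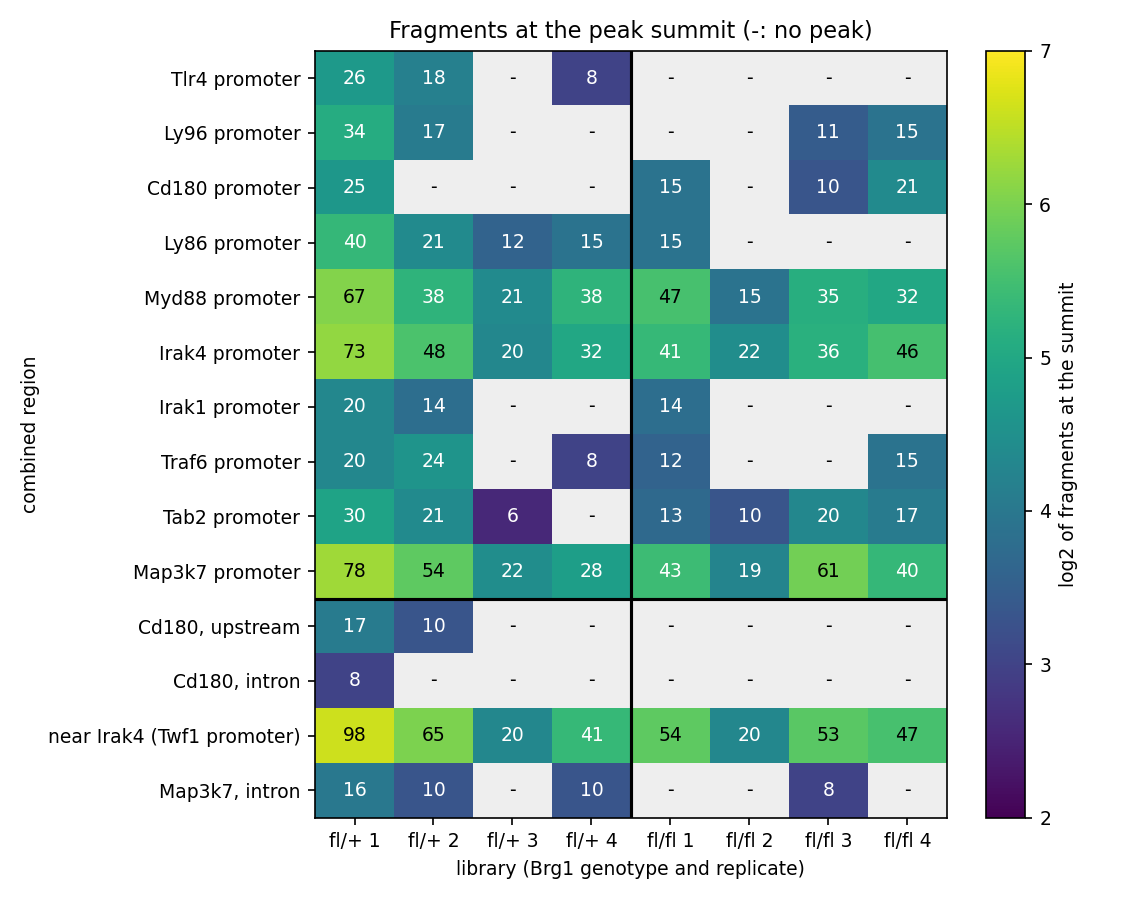
Fragments at the summit in each combined region of the 10 genes. Columns are the 8 libraries, rows the 10 promoter regions above the line and the 4 other regions below it, colour the log2 height, and a dash a region with no peak; the Tlr4 row holds 26, 18 and 8 in fl/+ and dashes in all fl/fl libraries.

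Myd88, the adaptor, and Irak4, the first kinase recruited to it, had promoter peaks in all 8 libraries with overlapping heights in the genotypes. Of all promoter regions, 41.1% were detected in all 8 libraries. The Myd88 promoter, chr9:119340976-119341653, held 67, 38, 21 and 38 fragments in fl/+ replicates 1 to 4 and 47, 15, 35 and 32 in fl/fl replicates 1 to 4. Scaled heights were 35.4 ± 4.87 (SD, n = 4) and 32.3 ± 5.35 (SD, n = 4). The region spans the GENCODE gene start at chr9:119341411, 73 bp upstream of the median summit. It does not reach the RefSeq start of Myd88, chr9:119340018, which lies further along the gene. The region also covers the start of Acaa1a, a thiolase gene transcribed the other way, and its signal cannot be divided between these genes.

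The Irak4 promoter, chr15:94543228-94544017, held 73, 48, 20 and 32 fragments in fl/+ and 41, 22, 36 and 46 in fl/fl. Scaled heights were 36.1 ± 1.64 (SD, n = 4) in fl/+ and 37.7 ± 4.45 (SD, n = 4) in fl/fl, again overlapping. The start of Pus7l lies in the same region.

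Irak1, the kinase that IRAK4 acts on, lies on the X chromosome and was detected in few libraries. Its promoter, chrX:74023498-74024078, held 20 and 14 fragments in fl/+ replicates 1 and 2 and 14 in fl/fl replicate 1. fl/+ replicates 1 and 2 and fl/fl replicate 1 are the deepest of their genotypes, and their scaled heights, 10.1 and 11.1 against 11.8, were close. The median summit of the X chromosome was below that of the autosomes in every library, by 0.33 to 0.65 on the log2 scale, and its part in the low detection of Irak1 was not tested. The region also holds the starts of the microRNA genes Mir718 and Mir5132.

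The promoter of Traf6, the ubiquitin ligase, was detected in 3 fl/+ and 2 fl/fl libraries. Heights in chr2:101678281-101678788 were 20, 24 and 8 fragments in fl/+ replicates 1, 2 and 4, and 12 and 15 in fl/fl replicates 1 and 4. Scaled, they ran from 8.77 to 18.9 and from 10.1 to 14.1, the second range inside the first.

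The promoter of Tab2, which reads the ubiquitin chains, was the weakest of those found in all 4 fl/fl libraries. Heights in chr10:7955543-7956750 were 30, 21 and 6 fragments in fl/+ replicates 1 to 3 and 13, 10, 20 and 17 in fl/fl replicates 1 to 4. Scaled heights of 14.0 ± 3.30 (SD, n = 3) and 15.9 ± 3.53 (SD, n = 4) overlapped. The height of 6 fragments in fl/+ replicate 3 was 1 above the lowest summit listed in that library, 5.

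The Map3k7 promoter had tall peaks in all 8 libraries. Heights in chr4:31963601-31964343 were 78, 54, 22 and 28 fragments in fl/+ and 43, 19, 61 and 40 in fl/fl. The scaled heights were 37.6 ± 5.05 (SD, n = 4) and 41.3 ± 10.8 (SD, n = 4), and fl/fl replicate 3, at 57.3, stood above the other 7 libraries. The median summit was 103 bp upstream of the gene start, within the run that holds the NF-κB letters.

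**Figure D3:**
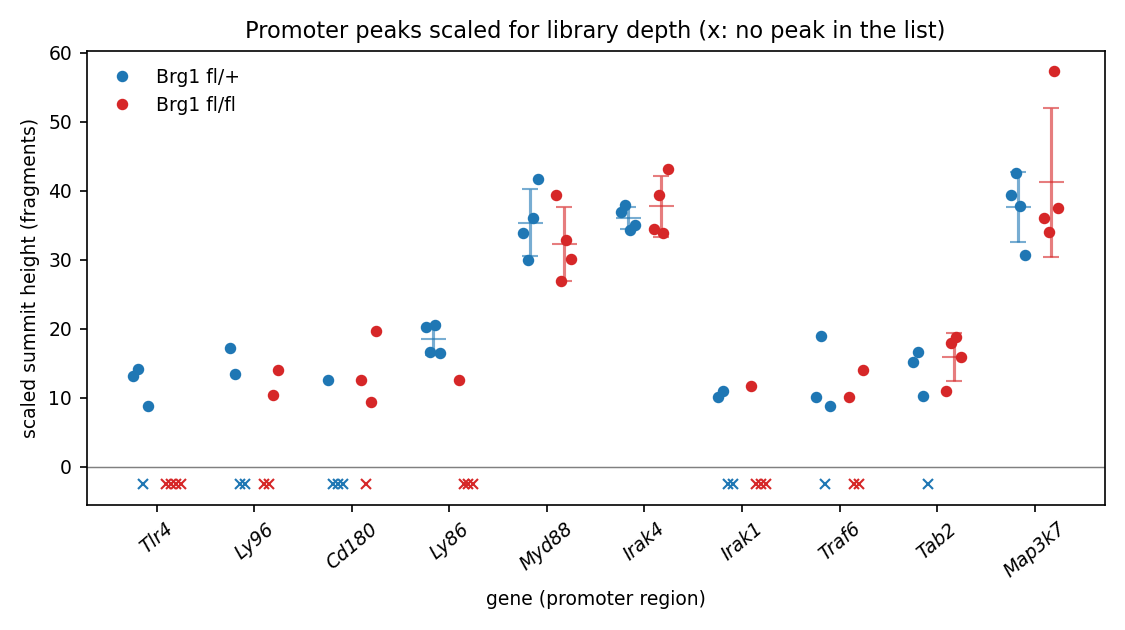
Summit height of the 10 promoter regions after scaling for depth. Points are libraries (blue fl/+, red fl/fl), crosses below 0 libraries without a peak, and bars the mean and SD where all 4 libraries of a genotype had one; the points of both genotypes overlap for Myd88, Irak4 and Map3k7, and the fl/fl point for Ly86 lies below the 4 fl/+ points.

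The question of whether deletion of the second Smarca4 allele changed the height of the peaks could be tested for the 4 member regions detected in all 8 libraries, with limma over all 4571 such regions and Benjamini-Hochberg adjustment. None of the 4 passed the threshold of 0.05. The log2 difference, fl/fl minus fl/+, was −0.13 ± 0.17 (SE) at the Myd88 promoter (95% interval −0.47 to 0.20, limma adjusted p = 0.647). At the Irak4 promoter it was 0.06 ± 0.15 (95% interval −0.25 to 0.37, limma adjusted p = 0.846), and at the Map3k7 promoter 0.11 ± 0.16 (95% interval −0.22 to 0.44, limma adjusted p = 0.709). The intervals still include values from −0.47 at Myd88 to 0.44 at Map3k7. Over all tested regions, 3.59% were lower and 9.49% higher in fl/fl, or 164 and 434 regions, and the median difference was 0.06. The split moved to 190 lower and 212 higher with quantile normalisation, and to 102 and 157 with the deposited fold in place of the height. All these counts leave out regions that lacked a peak in any library, and 4238 of the 4571 regions are promoter regions. An unadjusted p under 0.05 was reached by 1242 regions and by 0 of the 4. The two-sided exact permutation test over 70 assignments gave an unadjusted p of 0.4 for Myd88, 0.514 for Irak4 and 0.686 for Map3k7, where the smallest possible is 0.0286. Where 2 libraries of each genotype sufficed, the promoters of Ly96, Tab2 and Traf6 could be tested too, and 0 of 7 member regions passed. Of all 7921 regions tested in that way, 4.51% were lower and 8.17% higher in fl/fl. Libraries without a peak are left out of that fit, so a missing peak does not enter it as a low height.

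**Figure D4:**
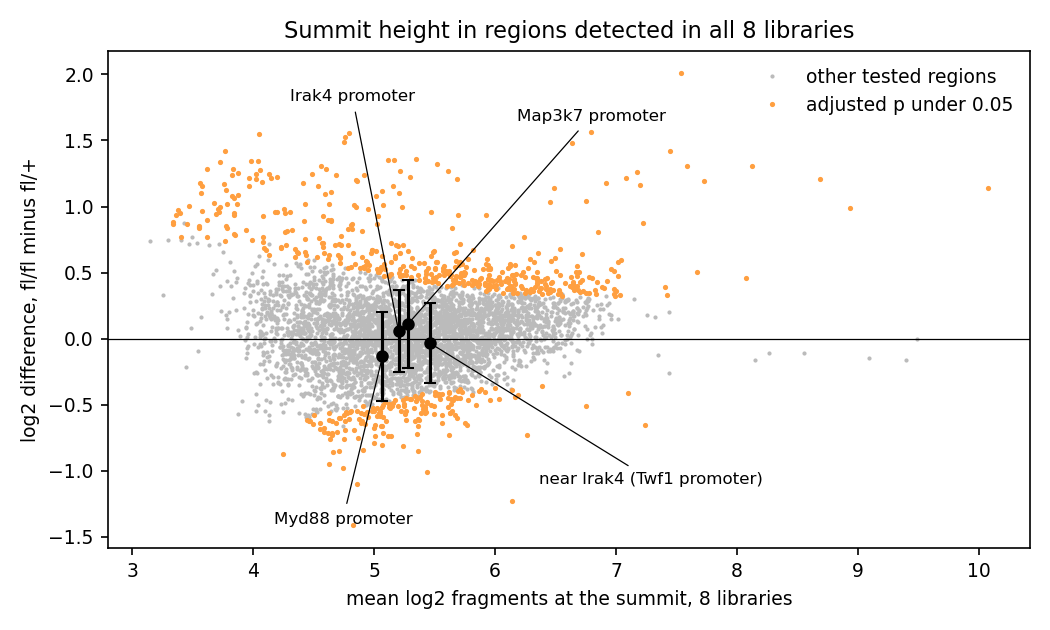
Difference in summit height between genotypes against mean height for the 4571 regions detected in all 8 libraries. The vertical axis is the log2 difference, fl/fl minus fl/+, orange points passed the adjusted threshold, and black points with 95% intervals are the 4 member regions, all of whose intervals cross 0.

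The other regions were fewer and mostly weak. The region 3648 bp upstream of Cd180, chr13:102689562-102690197, held 17 and 10 fragments in fl/+ replicates 1 and 2, and a region in an intron of Cd180, chr13:102728815-102729069, held 8 in fl/+ replicate 1. Neither had a peak in a fl/fl library, and the fl/+ libraries with a peak were the deepest. The region 8093 bp past the end of Irak4, chr15:94589514-94590108, is the promoter of Twf1, an actin regulator, and was the tallest assigned to any member. It held 98, 65, 20 and 41 fragments in fl/+ and 54, 20, 53 and 47 in fl/fl, a log2 difference of −0.03 ± 0.15 (SE; limma adjusted p = 0.909; exact permutation p = 0.83).

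The region in an intron of Map3k7, chr4:31986982-31987977, held 16, 10 and 10 fragments in fl/+ replicates 1, 2 and 4 and 8 in fl/fl replicate 3. It is shown because its sequence is a tandem repeat with a unit of about 30 bp that the reference does not soft-mask. Another reason is that 9 RUNX matches lie within 150 bp of its median summit, where 23.8% of regions outside promoters hold any. The summits of the 4 libraries with a peak spread over 591 bp, so the matches need not lie near each of them. Capitals mark the RUNX letters on the reverse strand in the 300 bases chr4:31987241-31987540, written on the forward strand of GRCm38.p6.
Map3k7 intron: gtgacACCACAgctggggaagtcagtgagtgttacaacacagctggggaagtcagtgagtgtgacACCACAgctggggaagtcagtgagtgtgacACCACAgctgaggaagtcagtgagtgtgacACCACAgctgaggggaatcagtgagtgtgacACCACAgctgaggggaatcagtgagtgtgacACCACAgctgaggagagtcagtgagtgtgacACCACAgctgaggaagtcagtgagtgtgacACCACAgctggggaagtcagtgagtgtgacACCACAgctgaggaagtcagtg
Reads from repeat copies are hard to place, and the handling of such reads is not given in the sources used here.

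Counted per library, 10, 9, 5 and 6 of the 10 member promoters were detected in fl/+ replicates 1 to 4 and 8, 4, 6 and 7 in fl/fl replicates 1 to 4. This made 7.5 ± 2.38 (SD, n = 4) promoters per fl/+ library and 6.25 ± 1.71 (SD, n = 4) per fl/fl library, a difference within the spread between libraries. Within each genotype the counts followed depth, with the lowest in its shallowest library. The background, higher relative to summit height in fl/fl, was not adjusted for in these counts. Of the 10 promoters, 4 were detected in fewer fl/fl than fl/+ libraries (Tlr4, Ly86, Irak1 and Traf6), against a background of 37.4% of promoter regions, and 2 in more (Cd180 and Tab2), against 11.3%. The shares of the members were near these backgrounds. With equal numbers of peaks, the promoters of Tlr4, Ly96 and Irak1 had no peak left in any library. Of the rest, 2, Ly86 and Traf6, were detected in fewer fl/fl libraries, where the background fell to 20.7% of 7306 promoter regions. Another 2, Cd180 and Tab2, were detected in more, for which no background share is given at that list length. Of the 4 other regions, 3 were detected in fewer fl/fl libraries and 0 in more, against 63.3% and 25.5% of regions outside promoters (the Twf1 promoter counts among promoter regions there). They numbered 2.5 ± 1.29 per library in fl/+ and 1.25 ± 0.5 in fl/fl (SD, n = 4).

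Of 33 further genes of Toll-like receptor signalling, 26 had a promoter peak in at least 1 library and 10 in all 8, against 48.1% and 22.4% of 21755 protein-coding genes. The promoters of 10 genes were detected in fewer fl/fl libraries and those of 3 in more. Fewer made up 38.5% of the genes with a peak, against 32.2% over protein-coding genes (3376 fewer and 1180 more of 10473). None differed by 3 or more libraries. The genes of this list named here were chosen after their values were seen: the 5 that differed by 2, the 10 found in all 8 libraries and the 7 without a peak. Ticam1, the adaptor of the MyD88-independent branch, was detected in 4 fl/+ and 2 fl/fl libraries. Tlr9, the receptor of unmethylated CpG DNA, and Irf7, an interferon regulatory factor, were each detected in 3 and 1, and Sigirr, an inhibitory receptor, in 2 and 0. Peli1, a ubiquitin ligase, was detected in 2 fl/+ and 4 fl/fl libraries. Detected in all 8 libraries were Tab1 and Tab3, partners of TAK1 like Tab2, Traf3, Tbk1, Irf3, the ubiquitin enzymes Ube2n and Ube2v1, and the inhibitors Tollip, Tnfaip3 and Cyld. No peak was listed at the promoters of Cd14 and Lbp, which deliver LPS to the receptor, of Tlr1, Tlr6 and Tlr7, of Tirap, or of Btk.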

How the data were processed

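ATAC-seq peak lists of 8 libraries were analysed. 8 RNA-seq samples of the series were not analysed here. According to the methods of the study and its processing notes, the authors used Bowtie2 to place the reads on mm10 and MACS2 to call the peaks of every library by itself, without pooling. Versions, options, read filters and a transposase shift, if any, are not given in the sources used here. The deposited lists give, for the summit, its fold over local background (a ratio), the deposited −log10 p and −log10 q, and, as another value, the summit offset. No list held a −log10 q below 1.31.

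MACS2 computes fold and −log10 p from the summit fragments and their expected number, with 1 added to both for the fold. These were solved for whole fragment numbers to within 0.002 of the deposited −log10 p, which left 78 of 72493 peaks without a value. Depth is known only through these heights, and intervals over libraries are the measure of precision. Log2 heights, centred on each library's median, were compared with limma 3.58.1 (mean trend, no covariate, R 4.3.3) over regions on chromosomes 1 to 19 and X found in all 8 libraries, at an adjusted p under 0.05. Start sites came from GENCODE release M21 for GRCm38, and sequence from GRCm38.p6. Of the 10 members, 8 matched a RefSeq promoter entry by symbol (all but Tlr4 and Ly96), and promoter runs are shown from these only. The runs were placed by the GENCODE gene start, which is not the RefSeq start for every member. The Cd180 and Traf6 runs each hold a RefSeq start.

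Genes were named by a rule: all members, pathway genes whose detection differed by 3 or more libraries, and genes with a start site within 1000 bp of a member promoter region. No pathway gene met it, and those printed were chosen after their values were seen. The members, lists and motifs were chosen with earlier results of these data known. The result for 1 marker gene is not reported here. Deviations of same-numbered libraries correlated at −0.062 to −0.0078. As replicates varied about as much as counting noise does, this cannot show whether same-numbered libraries were paired. The main fit used no pairing. Alternatives were stricter q values, equal numbers of peaks, 50% coverage, other promoter windows, other scalings and filters, a replicate block, joined or averaged replicates and each library left out. Averaging only the fl/+ replicates was added after seeing the data. The steps were tested on simulated data. The tools were samtools 1.23.1, pysam 0.24.0, matplotlib 3.10.9, pandas 2.3.3, scipy 1.17.1, numpy 2.4.6 and Python 3.11.15.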

Additional observations from a re-analysis of the deposited data

Results flagged for a closer look

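A library far from the others of its genotype was looked for in 14 groups of 4 libraries with Dixon's criterion at the 95% level, and 2 groups passed it. Chance alone passes about 1 in 20 groups. The scaled height of the Map3k7 promoter was 57.3 in fl/fl replicate 3, and the nearest other fl/fl library was at 37.6. Of the 4 other regions, which include the Twf1 promoter, 2 were detected in fl/fl replicate 3. In each other fl/fl library 1 was detected, the Twf1 promoter. With 3 tied counts this criterion is met by any difference, here of 1 region, so the rate of 1 in 20 does not apply to it. The region that this library alone added was the tandem repeat in the Map3k7 intron, with 8 fragments at its summit.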

How the results depend on the processing

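None of the member regions tested passed the threshold under any alternative fit. The number of regions called among all tested was 598. It was 259 with the deposited fold, 1004 with 2 libraries of each genotype, 274 with at least 20 fragments in every library, 381 with replicates 1 and 2 and 3 and 4 averaged, 282 with only the fl/+ replicates averaged, and 380 to 619 with 1 library left out. The lowest, 380 and 392, came without fl/fl replicate 1 and without fl/+ replicate 2. With the replicate block 576 were called, and no member call changed. The Irak4 promoter difference turned to −0.00083 with at least 20 fragments, and ranged from −0.0083 to 0.11 with 1 library left out; that of the Twf1 promoter ranged from −0.17 to 0.056 and that of Map3k7 from −0.060 to 0.19, the lowest without fl/fl replicate 3. The difference in member promoters per library, −1.25, ranged from −2.08 to −0.42 with 1 library left out, the last without fl/+ replicate 1. It was −3 with a −log10 q of at least 10, and −0.25 with equal numbers of peaks and with 50% of the region covered. The difference in other regions, −1.25, ranged from −1.75 to −0.75, and was 0 with a −log10 q of at least 10 and with equal numbers of peaks. Member regions detected in fewer fl/fl libraries numbered 7, 6 to 8 with 1 library left out, and 2 with equal numbers of peaks, where 8 member regions were left and 2 were detected in more. With equal numbers of peaks, the promoters of Tlr4, Ly96 and Irak1 were detected in 0 libraries, so their detection could not be compared at that list length.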

Other observations

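The tandem repeat in the Map3k7 intron was noticed after its values were seen, and repeats of this kind were then counted in all regions. The sequence within 150 bp of each summit was compared with itself shifted by 10 to 100 bp. The best identity was 66.8% for the Map3k7 region, a level reached by 16.7% of the 6188 regions outside promoters with full sequence. The comparison allowed no gaps, and the copies printed above are not all of the same length, so this identity can understate the repeat. An identity of at least 80% was reached by 12.0% of regions outside promoters and by 0.232% of 10324 promoter regions. The 10 member promoters lay between 30.4% and 37.5%. Among the other member regions, the Twf1 promoter reached 39.9%.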
